A study of Mus musculus with 16 samples.

Results

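The 34 genes described here are imprinted genes, a named list taken from knowledge of mouse imprinting and not by a rule on measured values. Earlier results of these data were known when the list was chosen. They are Nnat, Blcap, Gnas, Mest, Peg10, Sgce, Ppp1r9a, Asb4, Nap1l5, Peg3, Usp29, Zim1, Snrpn, Ndn, Magel2, Mkrn3, Peg12, Ube3a, Igf2, H19, Ascl2, Kcnq1, Phlda2, Inpp5f, Rasgrf1, Plagl1, Grb10, Dlk1, Meg3, Rtl1, Dio3, Slc38a4, Igf2r and Impact. All 34 were found in the annotation of the mouse genome GRCm38, where 32 of them are among its 21887 protein-coding genes and H19 and Meg3 are long noncoding RNAs. Each gene was read over its annotated span with 5 kb on either side, called its window. The windows of Nnat and Blcap, of Peg10 and Sgce, of Peg3, Usp29 and Zim1, and of Meg3 and Rtl1 overlap, so the genes fall into 29 separate loci, and 22 of the 338 distinct islands counted below belong to more than 1 gene.

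The study used chromatin immunoprecipitation and sequencing (ChIP-seq) in mouse neural stem cells grown as neurospheres from the cortex of day E14.5 embryos. Regions enriched in reads, called islands, were available for H3K4me3, H3K27ac, H3K4me1, H3K27me3, H3K36me2 and H3K36me3 in wild-type cells and in Setd5+/- cells, which carry the heterozygous genotype of the chromatin gene Setd5. A further island list came from a ChIP against the V5 tag of SETD5 in cells labelled wild type. The labels used here do not say how the tag was brought in, nor how many embryos or cultures stand behind each library. The lists number 13 of 16 samples, and the 3 inputs were not analysed here. Each group has 1 library, so every difference between genotypes below compares 2 libraries without a replicate check and without a p-value.

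In imprinting, a gene is read mainly from the copy inherited from one parent, while the other copy is kept silent. The choice is set by DNA methylation laid down in the egg or sperm at imprinting control regions, and is kept in body cells by factors such as ZFP57 and TRIM28. An imprinted gene can therefore carry H3K4me3, the mark of active promoters, on one copy and DNA methylation or the Polycomb mark H3K27me3 on the other. H3K36me3 marks the bodies of transcribed genes, and H3K27ac marks active promoters and enhancers. Island lists add up both parental copies, so which copy carried a mark, and whether imprinting was kept, cannot be read from them.

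The label of the cells was checked against marker genes. All 12 neural stem cell markers, among them Sox2, Nes, Pax6 and Fabp7, had H3K4me3 and H3K27ac islands in both genotypes and none had H3K27me3. H3K27ac was found at 1 of 6 endothelial, 1 of 6 microglial and blood, 0 of 6 mesenchymal, 1 of 6 oligodendrocyte and 2 of 6 neuronal marker genes in wild type, and at 2, 2, 1, 2 and 1 of them in Setd5+/-. Of 4 pluripotency markers, 1 had H3K27ac in each genotype. Whether other cell types take part in the differences below was not tested. The islands of a library held between 1019278 and 5093126 reads. The H3K27me3 lists held 2297833 island reads in wild type and 1398086 in Setd5+/-, and the H3K36me2 lists covered 69.1 and 121 Mb. The H3K36me3 lists held 2468530 island reads over 190 Mb in wild type and 3561439 over 202 Mb in Setd5+/-. Reads per kb of island are therefore given beside covered lengths, and their log2 ratio of Setd5+/- over wild type was set relative to its median over islands found in both genotypes.

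Promoters of 28 of the 34 genes, with 45 start sites, were matched in RefSeq (GRCm38.p6). Peg10, Sgce, Rtl1, H19, Kcnq1 and Impact had no entry. The 250 bases upstream of 7 starts are shown because the islands described below turn on them: Mest, Plagl1, Nap1l5 and Zim1 held H3K4me3 in both genotypes together with the letters TGCCGC, Peg3 shares its start region with Usp29, Nnat carried more H3K4me3 reads per kb in Setd5+/-, and Ndn had H3K4me3 in wild type alone. Sequences run 5′ to 3′ on the gene's strand, and capitals mark TGCCGC, the core motif of ZFP57, or its reverse complement GCGGCA.
Mest (chr6:30737800-30738049, plus strand): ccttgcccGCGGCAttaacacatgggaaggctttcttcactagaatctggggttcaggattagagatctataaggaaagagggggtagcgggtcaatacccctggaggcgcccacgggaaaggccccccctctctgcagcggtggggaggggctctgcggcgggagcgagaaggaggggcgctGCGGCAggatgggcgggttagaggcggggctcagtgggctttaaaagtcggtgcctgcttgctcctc
Plagl1 (chr10:13090582-13090831, plus strand): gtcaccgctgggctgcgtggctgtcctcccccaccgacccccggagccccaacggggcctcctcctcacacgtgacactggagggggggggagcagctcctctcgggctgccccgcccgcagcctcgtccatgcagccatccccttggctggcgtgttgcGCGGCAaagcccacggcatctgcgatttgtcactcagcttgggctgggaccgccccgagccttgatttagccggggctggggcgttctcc
Nap1l5 (chr6:58907127-58907376, minus strand): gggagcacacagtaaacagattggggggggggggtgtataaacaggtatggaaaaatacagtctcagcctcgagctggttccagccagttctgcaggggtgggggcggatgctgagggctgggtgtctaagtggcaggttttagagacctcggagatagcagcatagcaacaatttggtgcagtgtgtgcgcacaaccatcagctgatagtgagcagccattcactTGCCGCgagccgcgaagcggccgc
Zim1 (chr7:6696433-6696682, minus strand): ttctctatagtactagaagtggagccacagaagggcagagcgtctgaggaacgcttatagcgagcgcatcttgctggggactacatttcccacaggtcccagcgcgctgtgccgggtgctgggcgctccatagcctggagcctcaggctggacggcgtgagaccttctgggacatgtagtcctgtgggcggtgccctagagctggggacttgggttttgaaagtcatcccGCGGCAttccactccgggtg
Peg3 (chr7:6730420-6730669, minus strand): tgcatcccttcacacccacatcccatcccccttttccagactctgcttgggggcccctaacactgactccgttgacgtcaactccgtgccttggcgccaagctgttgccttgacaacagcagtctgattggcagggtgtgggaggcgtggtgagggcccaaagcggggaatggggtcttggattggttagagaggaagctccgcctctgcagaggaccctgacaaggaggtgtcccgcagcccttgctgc
Nnat (chr2:157559828-157560077, plus strand): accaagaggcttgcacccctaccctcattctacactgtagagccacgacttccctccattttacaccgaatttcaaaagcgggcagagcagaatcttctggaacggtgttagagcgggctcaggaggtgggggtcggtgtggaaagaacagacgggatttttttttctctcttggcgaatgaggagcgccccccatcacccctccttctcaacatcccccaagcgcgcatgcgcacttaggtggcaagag
Ndn (chr7:62348027-62348276, plus strand): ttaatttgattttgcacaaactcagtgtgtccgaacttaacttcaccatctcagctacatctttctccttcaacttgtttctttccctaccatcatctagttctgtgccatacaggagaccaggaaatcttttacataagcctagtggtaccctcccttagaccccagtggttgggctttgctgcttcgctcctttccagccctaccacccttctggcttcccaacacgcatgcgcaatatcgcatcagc

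TGCCGC, searched on both strands, was present upstream of 6 of the 45 starts (13.3%), against 8.68% of the 32851 starts of the whole table. These 6 starts belong to 5 genes: Mest with 2 starts that share nearly all of their bases and hold 2 matches each, Nap1l5, Plagl1, Zim1 and Meg3. A match is only a match of letters and does not show that ZFP57 binds there. The upstream windows held a median of 10.0 CpG dinucleotides, against 6.00 over all starts. The starts of Peg3 and Usp29, both known to be read from the paternal copy, face away from each other, and 263 bases of their table entries are the same DNA read on opposite strands.

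H3K4me3 was the mark found at most of the imprinted genes. In wild type 27 of 34 windows held an H3K4me3 island, against 67.7% of protein-coding genes, and in Setd5+/- 26 did, against 66.3%. An island lay on 23 of the 45 listed starts in wild type (51.1%, against 41.9% of all starts), in 19 of 28 genes. H3K4me3 covered on average 19.7% of the gene spans in wild type and 19.5% in Setd5+/-, and 8.75% of the span of protein-coding genes on average in both, with a median gene length of 28.7 kb for the imprinted genes and 17.2 kb for all. H3K27ac was found at 16 windows in wild type and 14 in Setd5+/-, against 47.6% and 45.5% of genes. H3K4me1, a mark of enhancers and promoter flanks, was found at 14 and 11 windows, against 53.3% and 36.1%.

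H3K27me3 was found at 12 imprinted genes in wild type and 11 in Setd5+/-, while 17.0% and 15.0% of protein-coding genes had it. Its mean share of the gene span was 9.98% in wild type and 8.06% in Setd5+/-, against 3.21% and 2.21% over all genes. H3K36me3 was found at 10 imprinted genes in each genotype, where the shares of all genes were 40.7% and 42.0%. H3K36me3 over at least 25% of the gene span was present at 6 imprinted genes in wild type (29.3% of all genes) and 7 in Setd5+/- (30.3%). H3K36me2, a broad mark of chromatin around genes, was at 2 imprinted genes in wild type and 1 in Setd5+/-, against 5.31% and 6.11%. SETD5-V5 islands touched 6 windows, Mest, Ppp1r9a, Snrpn, Ube3a, Impact and Inpp5f, against 26.4% of genes. They covered at least 25% of the span at 3 of these, Mest, Ube3a and Impact, against 17.4%. No list held an island at 5 genes, Dlk1, Meg3, Rtl1, Dio3 and Slc38a4, while 20.5% of protein-coding genes had none.

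**Figure D1:**
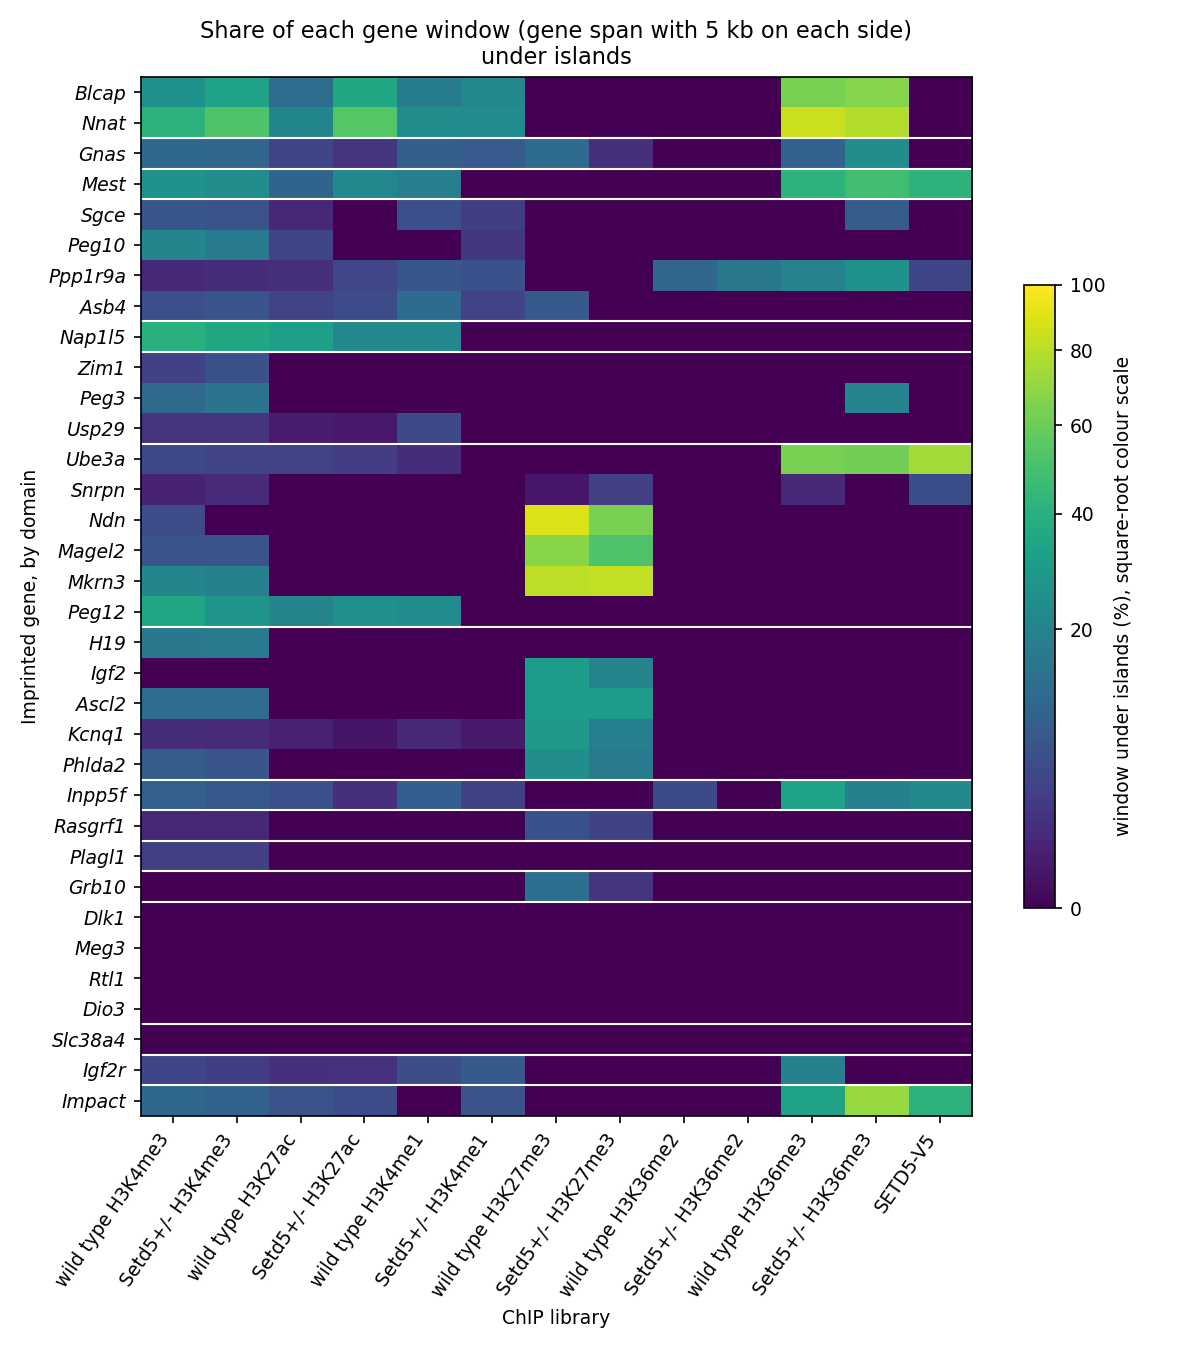
Share of each gene window under islands, in percent on a square-root colour scale, for the 34 imprinted genes (rows, with white lines between imprinted domains) and the 13 island lists (columns). Ndn, Magel2 and Mkrn3 stand out in the H3K27me3 columns, Nnat, Blcap, Ube3a, Mest and Impact in the H3K36me3 columns, and the rows of Dlk1, Meg3, Rtl1, Dio3 and Slc38a4 are empty.

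Active and Polycomb marks met at the same gene, in islands of H3K4me3 and H3K27me3 that shared a window, at 10 of 34 imprinted genes in wild type, against 12.0% of all genes, and at 8 in Setd5+/-, against 9.49%. The 10 were Asb4, Snrpn, Ndn, Magel2, Mkrn3, Gnas, Rasgrf1, Kcnq1, Phlda2 and Ascl2, and the 8 were the same without Asb4 and Ndn. The imprinted genes have longer spans than genes at large, and the part of length in this count was not tested. Of the other genes, 13 had H3K4me3 with H3K27ac and no H3K27me3 in wild type, Peg3, Zim1, H19 and Plagl1 had H3K4me3 with neither, and Igf2 and Grb10 had H3K27me3 without H3K4me3. The shares of all genes with these last patterns were not counted, so none of them can be called particular to imprinted genes.

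At 8 of these 10 genes the islands also shared bases in wild type, and at Asb4 and Snrpn they did not. How often islands shared bases among all genes with both marks was not counted, so the 8 cannot be set against genes at large. The shared length was 1.60 kb at Rasgrf1, which encodes a Ras exchange factor active in neurons, and 1.60 kb at Kcnq1, a potassium channel gene whose body holds the antisense RNA Kcnq1ot1. It was 1.20 kb at Gnas, which encodes the stimulatory G protein alpha subunit, and 1.00 kb at Phlda2, a gene known for holding back placental growth. It was 0.800 kb at Magel2, 0.600 kb at Ascl2, 0.400 kb at Ndn and 0.200 kb at Mkrn3. In Setd5+/- the shared length was 1.60 kb at Ascl2, a transcription factor gene of the trophoblast, 1.00 kb at Rasgrf1, 0.800 kb at Phlda2, 0.600 kb at Kcnq1 and 0.200 kb at Mkrn3 and Snrpn, and 0 at Gnas and Magel2. Shared bases do not show that both marks sat on 1 copy, since 2 parental copies with 1 mark each give the same picture.

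A dense Polycomb block lay in the Prader-Willi region of chromosome 7, a domain read mainly from the paternal copy. A stretch of 140 kb around Ndn, Magel2, Mkrn3 and Peg12 held 9 H3K27me3 islands in wild type, which covered 80.4 kb with 4955 reads, or 61.6 reads per kb. In Setd5+/- the same stretch held 11 islands over 75.2 kb with 2863 reads, or 38.1 reads per kb. The block was thus nearly as long in both libraries and thinner in reads in Setd5+/-. Its longest wild-type island, chr7:62349801-62377600, ran from the end of Ndn to the start of Magel2 with 2076 reads over 27.8 kb (74.7 per kb). Over the same place Setd5+/- had islands of 992 reads in all over 24.2 kb (41.0 per kb), a centred log2 ratio of -0.67 (95% interval -0.78 to -0.56, counting error only).

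Ndn encodes necdin, a growth-restraining protein of neurons, and its single listed start carried a small H3K4me3 island of 27 reads over 0.600 kb in wild type. No H3K4me3 island lay in the Ndn window in Setd5+/-. It was the 1 imprinted gene of 34 with H3K4me3 in wild type alone, against 2.44% of all genes, and 0 had it in Setd5+/- alone, against 1.11%. With an overlap of at least 1000 bp required, Ndn no longer counted and the 1 gene was Phlda2. Magel2, a partner of ubiquitin ligases, had H3K4me3 islands of 37 and 28 reads in wild type and Setd5+/-, near the low end of these lists. Mkrn3, a ubiquitin ligase gene known for its part in the timing of puberty, had H3K4me3 islands of 218 and 189 reads inside the block, with 10.2 and 10.4 kb of its window under H3K27me3. At the far side Peg12 had no H3K27me3 in either genotype. It held H3K4me3 islands of 335 reads (76.1 per kb) and 374 reads (110 per kb), and H3K27ac islands of 111 and 69 reads. A wild-type H3K36me2 island of 12.8 kb and 188 reads filled part of the gap between the Polycomb block and Peg12, and Setd5+/- had none in this stretch.

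**Figure D2:**
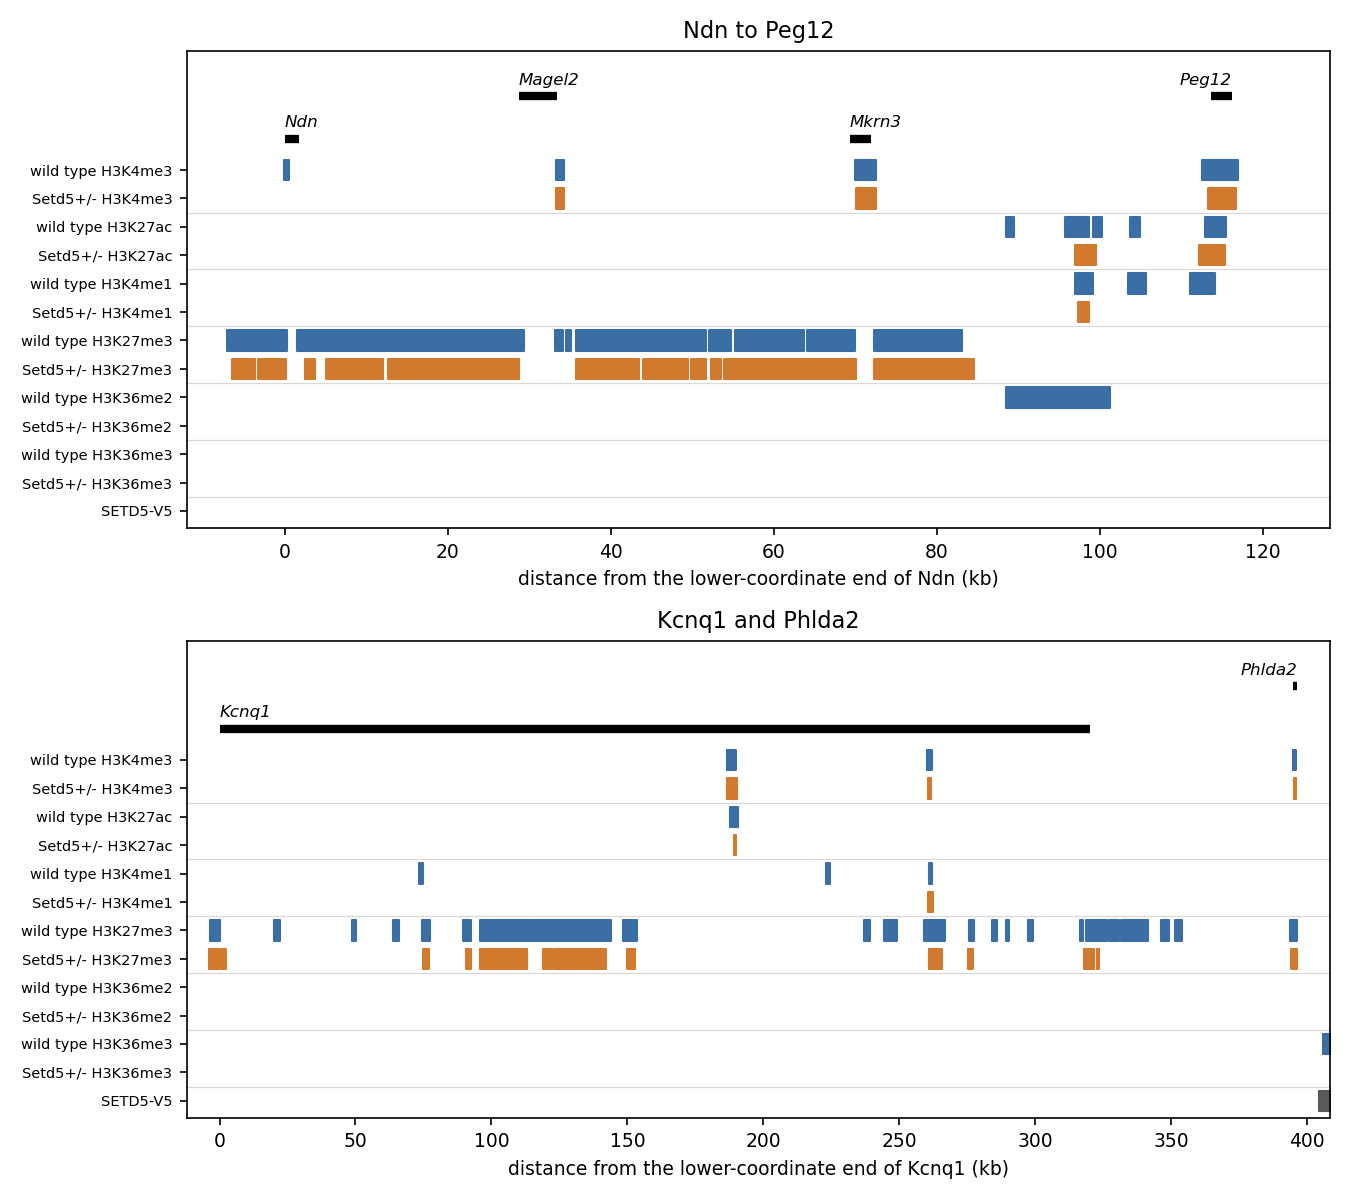
Islands of the 13 lists along 2 imprinted stretches, in kb from the lower-coordinate end of Ndn (upper map) and of Kcnq1 (lower map). Blue bars are wild-type, orange bars Setd5+/- and grey bars SETD5-V5 islands, and black bars are genes. H3K27me3 runs from Ndn past Mkrn3 in both genotypes, and around Kcnq1 and Phlda2 it covers 118 kb (wild type) and 64.2 kb (Setd5+/-).

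In total length and reads, Kcnq1 held more H3K27me3 than any other of the 34 genes, in a window of 330 kb. By share of the gene span it was below Phlda2, Ascl2, Igf2 and Ndn in wild type. The Kcnq1 window had 21 wild-type islands with 4040 reads, which covered 27.2% of the gene span, and 13 Setd5+/- islands with 1790 reads, which covered 17.7%. The longest wild-type island measured 28.8 kb with 1284 reads (44.6 per kb), where Setd5+/- had 629 reads over 22.2 kb (28.3 per kb), a centred log2 ratio of -0.46 (-0.60 to -0.32). Within Kcnq1 lies Kcnq1ot1, the long noncoding RNA known to silence its neighbours on the paternal copy, and islands touching it had 2403 reads in wild type and 1288 in Setd5+/-. An H3K4me3 island over the upper end of Kcnq1ot1 had 497 reads in wild type and 504 in Setd5+/-. H3K27ac at that end was 68 reads over 2.80 kb and 23 reads over 1.00 kb.

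The genes around Kcnq1 differed from each other in H3K27me3. Phlda2 had an H3K27me3 island of 154 reads over 2.80 kb in wild type and of 62 reads over 2.00 kb in Setd5+/-, a centred log2 ratio of -0.63 (-1.08 to -0.19). Cdkn1c, a neighbouring cell cycle inhibitor gene that is also imprinted, had 5.26 kb of its window under H3K27me3 with 143 reads in wild type and none in Setd5+/-. Ascl2, on the other side of Kcnq1, had 117 and 97 reads, 3.80 kb in each, and its ratio of -0.07 (-0.48 to 0.33) has an interval that includes 0. Igf2, the growth factor gene, had 594 reads over 6.40 kb in its larger wild-type island (92.8 per kb), which put it at percentile 99.6 of that library by density, and 228 reads over 5.20 kb in Setd5+/- (43.8 per kb). Its centred log2 ratio was -0.88 (-1.11 to -0.66). H19, the noncoding RNA gene that shares enhancers with Igf2, had no H3K4me3 over its span. An H3K4me3 island of 105 and 115 reads lay in the flank of its window, and the window held no H3K27me3.

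Other Polycomb-marked genes were smaller. Grb10, which encodes an adaptor that restrains growth factor signalling, had 5 islands over 15.4 kb of its window with 519 reads in wild type and 2 islands over 2.80 kb with 82 reads in Setd5+/-. The wild-type island on its first listed start had no Setd5+/- counterpart. Rasgrf1 had a single 13.8 kb island with 566 reads in wild type and islands of 92 and 97 reads in Setd5+/-. Asb4, which encodes a subunit of a ubiquitin ligase, had 2 islands over 4.80 kb with 131 reads in wild type and none in Setd5+/-. It was the 1 imprinted gene with H3K27me3 in wild type alone, against 5.62% of all genes, and 0 had it in Setd5+/- alone, against 3.58%.

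Snrpn went the other way. The gene, which encodes a splicing protein and gives rise to long neuronal transcripts, had 1 wild-type H3K27me3 island of 37 reads over 1.80 kb. In Setd5+/- it had 12 islands over 17.4 kb with 413 reads, each of 20 to 62 reads and scattered over the span of 468 kb. The fewest reads in any H3K27me3 island were 17 in wild type and 14 in Setd5+/-. Among all Setd5+/- islands of the mark, the 12 stood between percentiles 0.282 and 68.3 by width and between 0.0799 and 93.0 by reads per kb. More islands were not limited to Snrpn. The whole domain from Ube3a to Peg12, 3246 kb, held 34 H3K27me3 islands over 223 kb with 11687 reads in wild type. In Setd5+/- it held 72 islands over 253 kb with 8381 reads. Snrpn also had more H3K4me3 in Setd5+/-, with 5 islands and 629 reads against 3 islands and 326 reads. At chr7:60243001-60245400 the reads were 91 in wild type (56.9 per kb) and 275 in Setd5+/- (115 per kb), a centred log2 ratio of 0.94 (0.59 to 1.30). The start at position 60005199 carried H3K4me3 in both genotypes, with 186 and 212 reads, a ratio of 0.12 (-0.17 to 0.41). At chr7:60390601-60391800 the reads were 49 and 54, a ratio of 0.65 (0.07 to 1.24). A start at position 60140225 carried H3K4me3 in Setd5+/- alone, 49 reads over 1.20 kb.

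Set against all islands shared by both genotypes, the H3K27me3 islands of the imprinted genes had fewer reads per kb in Setd5+/-. Of 21 such islands 16 had a ratio below the genome-wide median and 5 above it. The median centred log2 ratio was -0.46, ranging from -0.90 at Kcnq1 to 0.35 at Grb10, and the pooled ratio was -0.46 (-0.51 to -0.41, counting error only). The middle 50% of the 4347 reference islands lay between -0.27 and 0.23. The imprinted islands were also denser in wild type (median 43.9 reads per kb, reference 30.4). The 739 reference islands at or above 43.9 had a median ratio of -0.55. These 739 were picked by wild-type density, the denominator of the ratio, and are not matched to the imprinted islands below 43.9. The part of density in the ratios was not tested. In reads per kb none of the 21 was 2-fold lower, against 1.68% of reference islands, and none was 2-fold higher, against 0.253%. Each library's reads were divided by its own island width, so a loss of width does not enter the ratio. At Gnas, 297 reads over 6.60 kb and 38 reads over 1.40 kb gave -0.53 (-1.06 to -0.04).

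**Figure D3:**
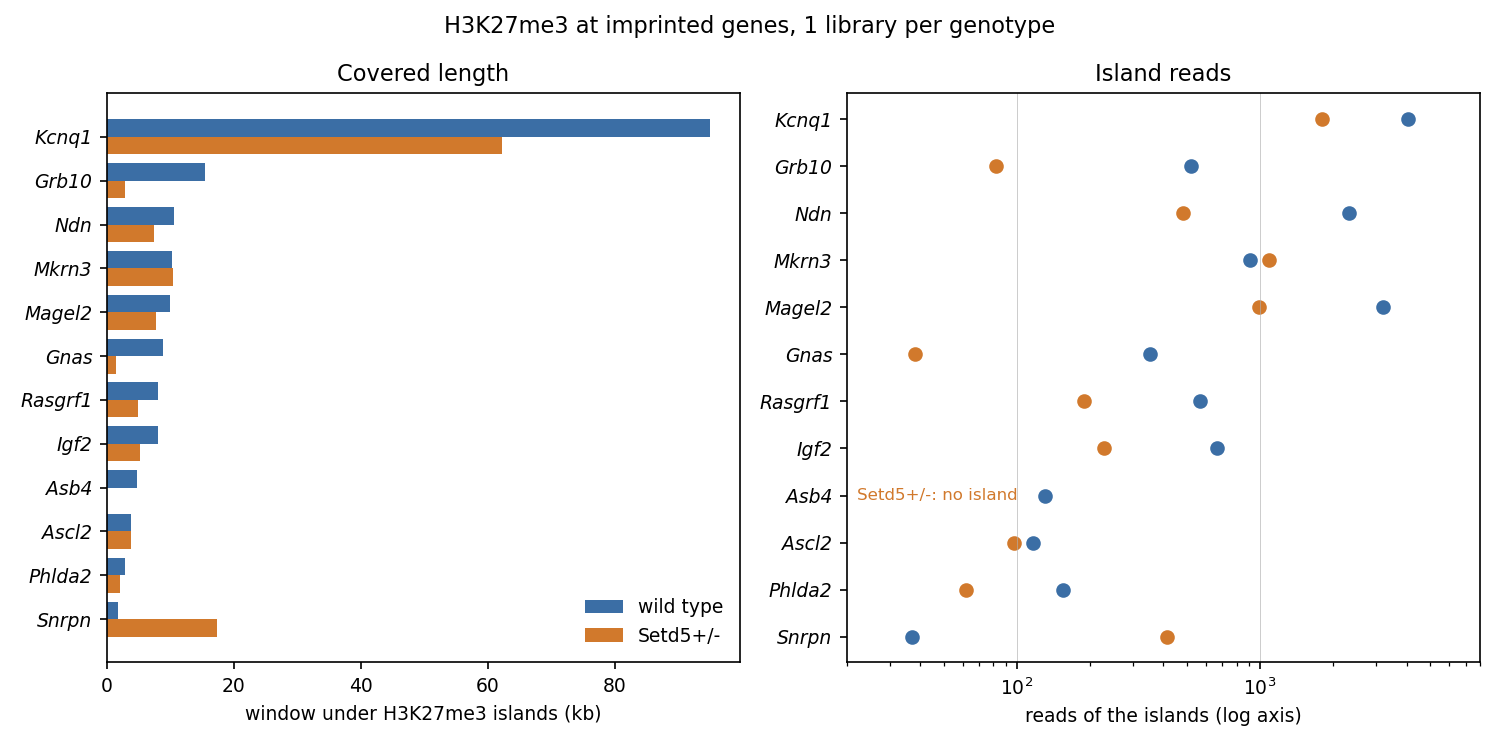
H3K27me3 at the 12 imprinted genes that had it in either genotype: window length under islands in kb (left, bars) and reads of the islands on a log axis (right, dots), wild type in blue and Setd5+/- in orange, 1 library each. Reads are those of whole islands, so Ndn and Magel2 both count the wild-type island between them. Kcnq1 has 4040 and 1790 reads, and Snrpn, with 37 and 413, lies the other way round.

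H3K4me3 in these genes differed little between the genotypes at most islands and much at a few. Over 37 shared islands the median centred log2 ratio was -0.02, with 17 higher and 20 lower, and the pooled ratio was 0.11 (0.06 to 0.15). The middle 50% of 15932 reference islands lay between -0.20 and 0.22. At least 2-fold higher in Setd5+/- were 2 of the 37, in Impact and Gnas, against 0.716% of reference islands, and 0 were 2-fold lower, against 0.803%.

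Impact encodes a regulator of the stress kinase GCN2 and lies on chromosome 18. Over its lower end, chr18:12954801-12957000, H3K4me3 had 59 reads over 1.80 kb in wild type (32.8 per kb) and 352 reads over 2.00 kb in Setd5+/- (176 per kb). The centred ratio was 5.11-fold, a log2 ratio of 2.35 (1.95 to 2.78). At the island within the gene the reads were alike, 301 and 287. Other marks differed at the lower end too. An H3K27ac island of 42 reads over 1.60 kb and 2 H3K4me1 islands with 65 reads in all were found there in Setd5+/- alone. At the inner island H3K27ac was 65 reads over 3.00 kb in wild type and 24 reads over 1.00 kb in Setd5+/-.

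H3K36me3 covered more of Impact in Setd5+/-. Wild type had 1 island of 16.0 kb with 197 reads in the upper part of the gene, and Setd5+/- had that region under 21.6 kb with 373 reads and a second island of 12.8 kb with 220 reads between the lower end and the inner H3K4me3 island. The first pair gave 12.3 and 17.3 reads per kb, a centred log2 ratio of 0.03 (-0.22 to 0.28). SETD5-V5 covered 41.4% of the window with 323 reads, over the same upper part. Just outside the gene, at the edge of its window, narrow islands of H3K27ac held 43 reads over 0.600 kb and 42 reads over 0.200 kb.

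Gnas, known for several alternative promoters used by different parental copies, had the other H3K4me3 island above 2-fold. At chr2:174326401-174328600, over the starts at positions 174327749 and 174327768, reads were 95 in wild type (47.5 per kb) and 227 in Setd5+/- (114 per kb), a log2 ratio of 1.18 (0.83 to 1.55). Further up, at chr2:174294001-174297200, they were 174 (66.9 per kb) and 375 (117 per kb), a log2 ratio of 0.74. At chr2:174330401-174332600 they were 250 and 226, or -0.36. The 3 islands of the locus therefore differed from each other in direction. The first listed start, at position 174284320, had 35 H3K4me3 reads in wild type alone.

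Around that first start the broad marks of Gnas differed between the libraries. Wild type had 2 H3K27me3 islands, on either side of the start and not over it, 8.80 kb with 351 reads. Setd5+/- had 1 of 1.40 kb with 38 reads, inside the gene at chr2:174288001-174289400. Over the same stretch Setd5+/- had an H3K36me3 island of 16.0 kb with 211 reads, chr2:174275201-174291200, and wild type had none. The H3K36me3 island at the far end of the gene had 97 and 87 reads. H3K27ac islands of Gnas held 85 reads in wild type and 30 in Setd5+/-.

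Nnat encodes neuronatin, a small membrane protein of the developing brain, and lies inside Blcap, so marks over Nnat cannot be assigned to 1 of the 2 genes. Over its start H3K4me3 had 106 reads over 2.40 kb in wild type (44.2 per kb) and 267 over 3.60 kb in Setd5+/- (74.2 per kb), a log2 ratio of 0.68 (0.35 to 1.01). H3K27ac covered that start in Setd5+/- alone, with 76 reads over 3.40 kb. At the start of Blcap, which encodes a small protein linked to apoptosis, H3K4me3 was 544 and 610 reads and H3K27ac 141 and 125, a log2 ratio of -0.01 for the first. H3K36me3 over both genes was 1 island of 501 reads over 30.4 kb in Setd5+/- and 1 of 135 reads over 12.8 kb in wild type. The Setd5+/- island also ran over another wild-type island, of 157 reads, that lay outside both gene windows. The 2 wild-type islands together held 292 reads over 24.0 kb. Against them the Setd5+/- island gave 16.5 reads per kb to 12.2 in wild type, a centred log2 ratio of -0.02. No SETD5-V5 island lay there.

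**Figure D4:**
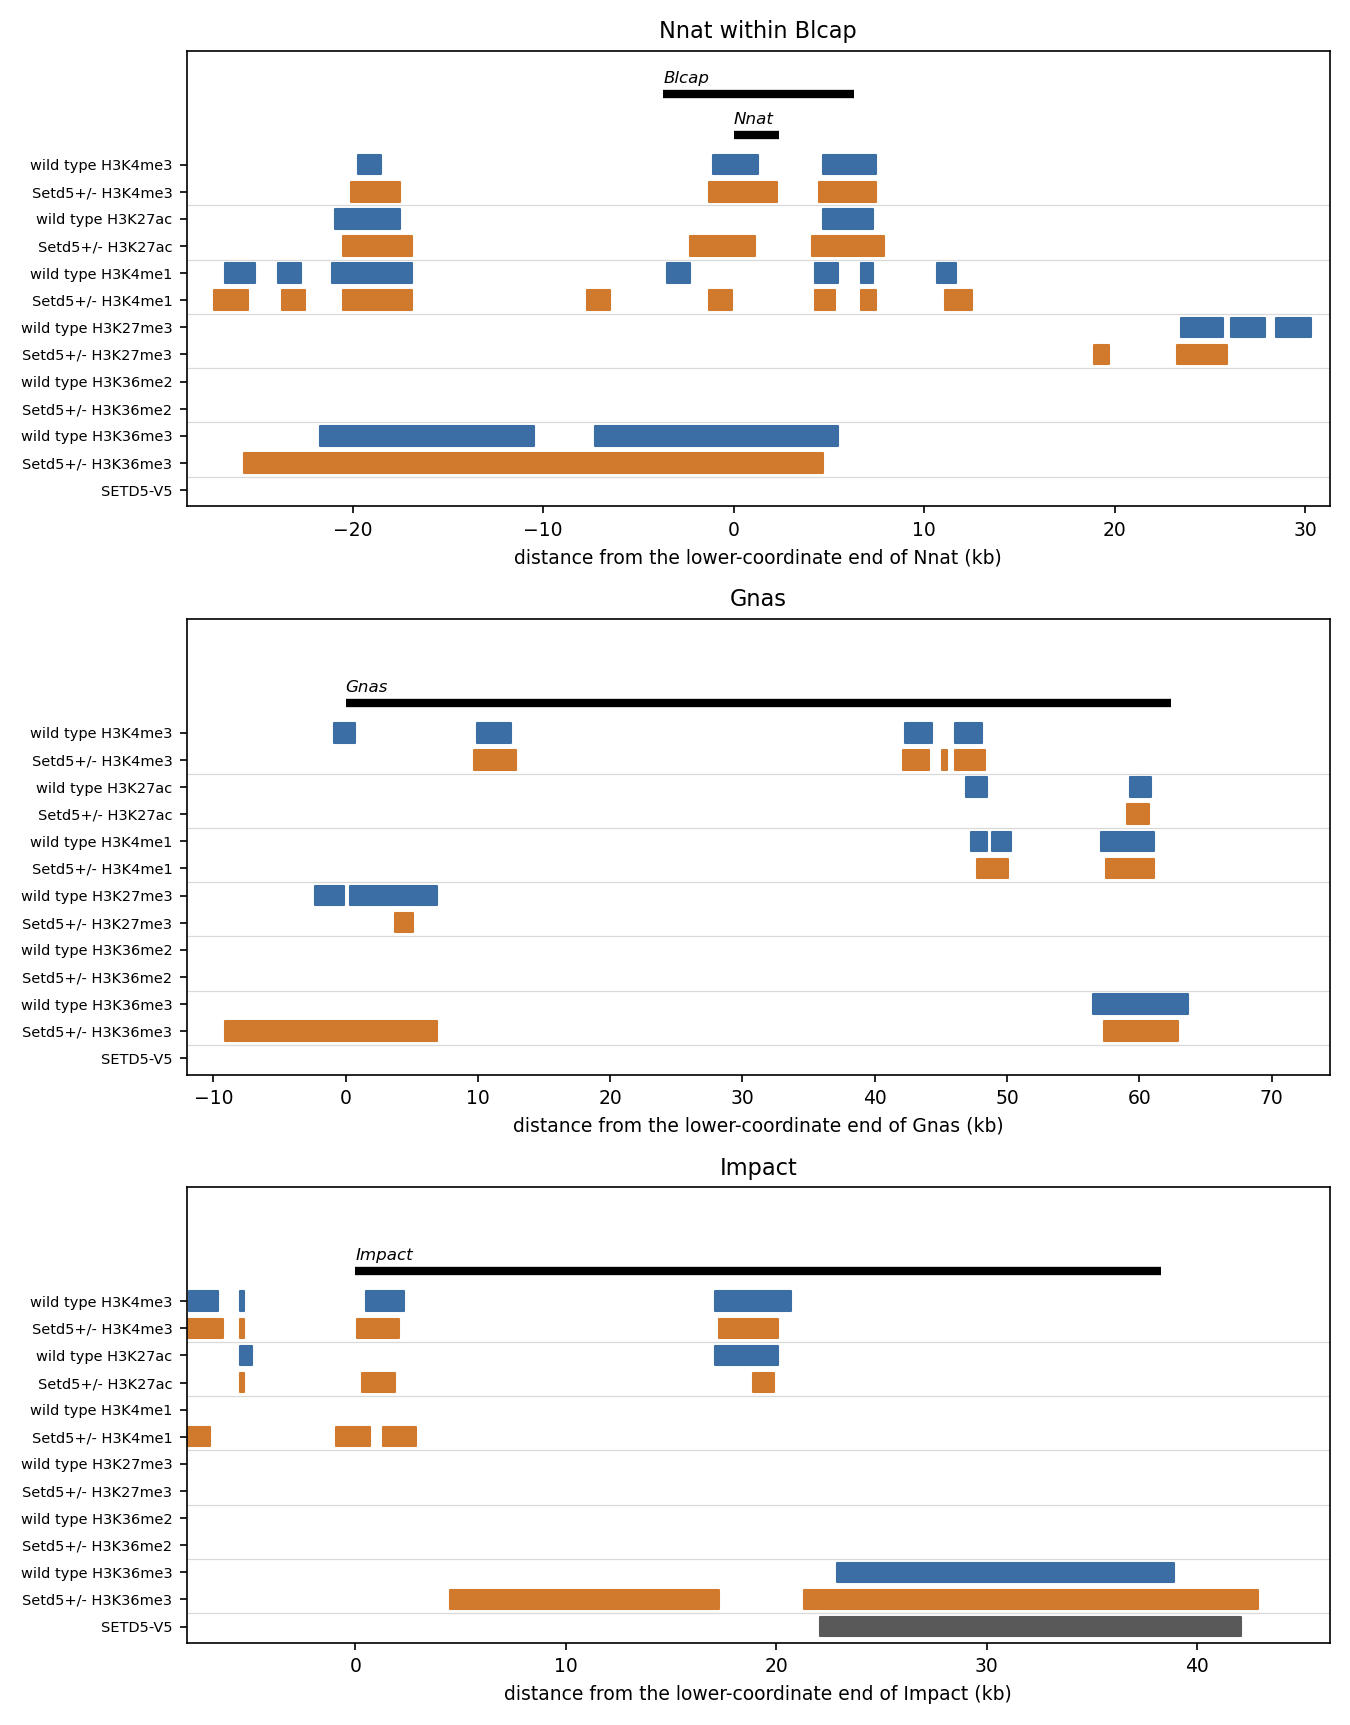
Islands of the 13 lists around Nnat and Blcap (top), Gnas (middle) and Impact (bottom), in kb from the lower-coordinate end of the first-named gene; blue is wild type, orange Setd5+/-, grey SETD5-V5 and black the genes. Islands of H3K27ac at the start of Nnat and the lower end of Impact, and of H3K36me3 at the start of Gnas, are seen in Setd5+/- alone.

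At the promoters of the imprinted genes described next, the centred log2 ratios of H3K4me3 reads per kb lay between -0.19 and 0.28. Mest, which encodes a member of the hydrolase family and is read from the paternal copy, had 579 and 516 reads in wild type and Setd5+/-, a log2 ratio of -0.10. Peg3, a zinc finger gene, shares 1 island with Usp29, which had 432 and 493 reads (-0.18). Nap1l5 had 358 and 322 reads (-0.03), Plagl1, a zinc finger gene of growth control, 147 and 135 (-0.19), and Zim1 105 reads over 1.20 kb and 169 over 2.00 kb (-0.12). The island between Peg10, a gene derived from a retrotransposon, and Sgce, which encodes epsilon-sarcoglycan, had 356 and 369 reads (-0.02). Ube3a, the ubiquitin ligase gene of Angelman syndrome, had 832 and 784 reads (0.05). In Igf2r, the receptor gene that clears IGF2, the start had 98 and 91 reads (0.28). The island at the start of its antisense RNA Airn, chr17:12740801-12742800, had 146 and 147 (0.09). These promoters include the 4 shown above with TGCCGC and others without it, such as those of Peg3 and Ube3a. They were grouped by their ratios, so no link between the ratios and the motif can be read from them.

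Somewhat larger ratios were seen at Asb4 and Peg12. Just inside the lower end of Asb4 the reads were 62 over 1.20 kb in wild type and 118 over 1.20 kb in Setd5+/-, a log2 ratio of 0.86 (0.40 to 1.32). Peg12 gave 0.46 (0.24 to 0.68). At the start of Inpp5f, a phosphoinositide phosphatase gene, the ratio was -0.33 (-0.60 to -0.06), with 235 and 213 reads.

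**Figure D5:**
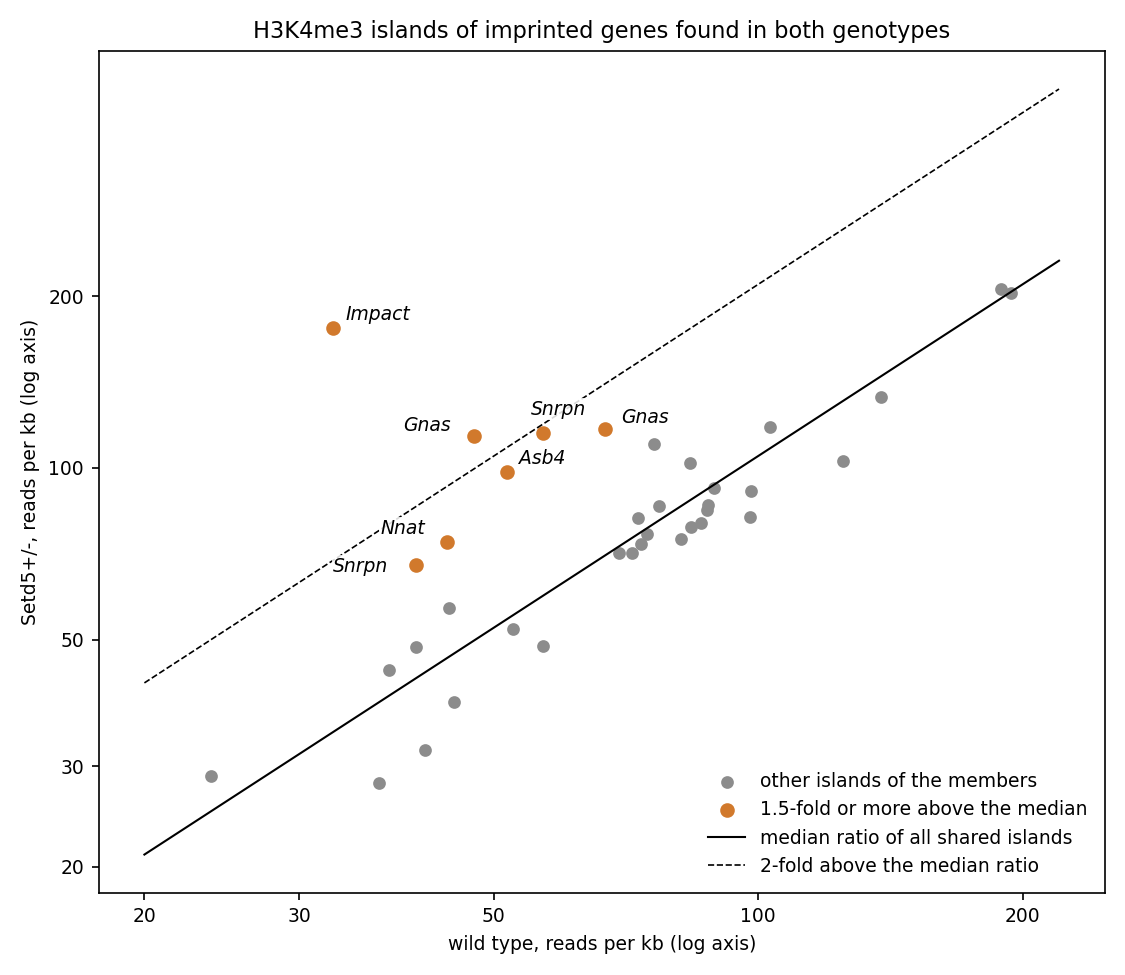
Reads per kb of the 37 H3K4me3 islands of imprinted genes found in both genotypes, wild type on the horizontal and Setd5+/- on the vertical axis, both on log scales; the solid line is the median ratio of all shared islands and the dashed line 2-fold above it. The islands of Impact and Gnas lie above the dashed line, and islands at least 1.5-fold above the solid line are coloured and named.

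H3K27ac and H3K4me1 islands were smaller, and differences in their presence rest on few reads. H3K27ac was found in wild type alone at 2 genes, against 6.57%, and these were Peg10 and Sgce, which share the 1 island of 32 reads. No gene had it in Setd5+/- alone, against 4.43%. The 15 shared H3K27ac islands had a pooled log2 ratio of 0.04 (-0.10 to 0.17). Of these, 2 had intervals without 0. The first was the narrow island at the edge of the Impact window, at 1.98 (1.33 to 2.62) with 43 reads over 0.600 kb and 42 over 0.200 kb. Its reads were nearly equal, so the ratio comes from the called widths, which the interval does not cover. Narrow H3K4me3 islands of 75 and 84 reads lay at the same place. The other was the island of Peg12, at -0.56 (-1.02 to -0.11) with 111 and 69 reads.

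Among genes that held H3K27ac in both genotypes, the read totals below are as deposited, not scaled for the depth of the libraries. Ppp1r9a had 3 islands with 146 reads in wild type and 7 islands with 242 reads in Setd5+/-. The 3 islands found in both held 146 and 124 reads, a log2 ratio of -0.02 (-0.38 to 0.33), so the higher total in Setd5+/- lay in the 4 islands without a counterpart, each of 24 to 35 reads. Mest had 1 island with 83 reads and 2 with 125, and its shared island gave 0.06 (-0.38 to 0.50). Inpp5f had 3 islands with 145 reads in wild type and 1 with 38 reads in Setd5+/-, and the 2 islands without a counterpart lay at its start and near its far end. At Nap1l5, which encodes a protein of the nucleosome assembly family, the reads were 122 in 2 islands and 47 in 1, and the shared island gave -0.50 (-1.03 to 0.02). The shared islands of Ube3a held 140 and 102 reads, those of Asb4 57 and 58, and those of Igf2r 37 and 42. Usp29 had 1 island in each genotype, with 31 and 25 reads, at different places in the gene.

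H3K4me1 was found in wild type alone at Usp29, Mest, Peg12, Ube3a and Nap1l5, 5 of 34 against 19.9%, and in Setd5+/- alone at Peg10 and Impact, 2 of 34 against 2.72%. The longest of these was at Usp29, a deubiquitinase gene, with 7 islands over 12.0 kb and 327 reads in wild type. The Setd5+/- H3K4me1 list held 1110651 island reads, against 1988772 in wild type. The 22 shared H3K4me1 islands had a pooled log2 ratio of -0.08 (-0.20 to 0.05).

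H3K36me3 over the body marked Nnat, Blcap, Mest, Ube3a and Impact in both genotypes. Inpp5f passed 25% of its span in wild type alone, and Peg3 and Ppp1r9a in Setd5+/- alone. H3K36me3 lay over 58.2 kb (wild type) and 56.6 kb (Setd5+/-) of the window of Ube3a, and SETD5-V5 covered 77.5% of its span. Mest had 10.4 and 12.0 kb, and 10.4 kb under SETD5-V5. At Mest the window reaches into Copg2, a coat protein gene where H3K36me3 covered 58.2 kb (wild type) and 81.4 kb (Setd5+/-).

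Ppp1r9a, which encodes the actin-binding protein neurabin, had 53.6 and 70.4 kb under H3K36me3, 29.3 and 44.0 kb under H3K36me2, and 12.0 kb under SETD5-V5. Inpp5f had 31.8 and 18.2 kb under H3K36me3, and an H3K36me2 island of 96 reads over 4.80 kb in wild type alone. It was the 1 gene with H3K36me2 in wild type alone, against 2.92%, and 0 had it in Setd5+/- alone, against 3.72%. H3K36me3 islands were found in wild type alone at Igf2r (167 reads over 18.4 kb) and Snrpn (81 reads over 6.40 kb), 2 of 34 against 3.28%. They were found in Setd5+/- alone at Peg3 (115 reads over 7.20 kb) and Sgce (113 reads over 7.20 kb), 2 of 34 against 4.58%. Over 13 shared H3K36me3 islands the pooled log2 ratio was -0.05 (-0.12 to 0.02), and the single shared H3K36me2 island, in Ppp1r9a, gave 0.06 (-0.16 to 0.28). In wild type the windows of the 6 genes with SETD5-V5 islands also held H3K36me3 islands. Nnat, Blcap, Gnas and Igf2r had wild-type H3K36me3 without SETD5-V5, and Peg3 and Sgce had H3K36me3 in Setd5+/- alone without it. Over all genes 40.7% had wild-type H3K36me3 and 26.4% had SETD5-V5, but the share with both was not counted. Sharing a window does not mean that the islands shared bases.

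Dlk1, Meg3, Rtl1 and Dio3 belong to 1 imprinted domain of chromosome 12, whose coding genes act in growth and whose noncoding RNAs come from the maternal copy. These lists held no island of any mark between positions 109244800 and 110373801, a stretch of 1129 kb around them. Slc38a4, an amino acid transporter gene on chromosome 15, lay in a stretch of 486 kb without an island. An empty stretch says only that no island was listed there, and reads below the callers' limits were not seen here.

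A pair of related lists gives context. Of 69 other imprinted genes and neighbours in the same domains, 45 had H3K4me3 in wild type (65.2%, against 67.7% of all genes) and 43 in Setd5+/- (62.3%, against 66.3%). H3K27me3 was at 18 (26.1%, against 17.0%) and 17 (24.6%, against 15.0%). Both marks were at 10 in each genotype (against 12.0% and 9.49%), and 12 had no island (17.4%, against 20.5%). Among those within 500 kb of the genes above, Atp10a near Ube3a, a lipid transporter gene, had 16.0 kb (wild type) and 53.6 kb (Setd5+/-) under H3K36me3, and Ctnnbl1 near Blcap had 0 and 33.6 kb. Of 15 factors that keep imprints, 14 had H3K4me3 in both genotypes, against 67.7% and 66.3% of all genes. H3K36me3 lay over the body of 9 in wild type and 10 in Setd5+/-, the tenth being Zfp57, against 29.3% and 30.3%. SETD5-V5 covered the body of 8 of them, among them Trim28, Dnmt1, Uhrf1 and Zfp445, against 17.4%.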

How the data were processed

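FastQC, Bowtie2 2.2.3, the build GRCm38 (mm10) and the island caller SICER 1.1 are named in the submitters' processing notes. Per the file headers, 5 lists (H3K36me2, H3K36me3 and SETD5-V5) were called at a false discovery rate of 0.01, a window of 800 bp and a gap of 2400 bp. No settings stand in the headers of the other 8, whose islands span whole steps of 200 bp. The deposited whole numbers beside the islands were taken as the authors' read counts per island, a reading from the values. How the inputs and reads mapping to several places were used, and each library's total reads, are not given in these sources, so depth outside islands is unknown.

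All 34 genes are named. Members, gene lists and markers were chosen with earlier results of these data known. An island counted with an overlap of 1 bp or more of the gene span with 5 kb on each side; H3K36me3 and SETD5-V5 over the body needed 25% of the span. Covered lengths are within windows, and reads are those of whole islands. Islands overlapping across genotypes were grouped, and each genotype's reads were divided by the width of its own islands in the group. The log2 ratio of these reads per kb was centred on the median over autosomes other than 1, 4 and 15. The 95% intervals of ratios come from exact binomial limits and cover counting error alone; without molecular identifiers, PCR copies of 1 molecule count as several reads. The genes' annotation gives no exons, so exon or intron positions are not stated. Starts and sequences come from RefSeq. Python 3.11.15, numpy 2.4.6, pandas 2.3.3, scipy 1.17.1 and matplotlib 3.10.9 were used, and the steps were tested on simulated data. Alternatives were other flanks, overlaps, body shares, stricter islands, equal covered length, no centring and, chosen after seeing the data, merged windows.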

Additional observations from a re-analysis of the deposited data

How the results depend on the processing

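No paired analysis was possible because each group has 1 library, and no library could be left out. Of 221 recomputed values, 103 of the counts and ratios that answer a comparison and 96 of the others stayed within 1.5 times the reported count or within the interval of the ratio, and 21 and 1 did not. With stricter islands, without the 25% of each list with the fewest reads per kb, H3K4me3 in wild type alone was at 2 genes (with Phlda2), H3K27ac in wild type alone at 4 (with Gnas and Nap1l5) and in Setd5+/- alone at 3 (Igf2r, Kcnq1 and Usp29), H3K27me3 in Setd5+/- alone at 1 (Snrpn), H3K36me3 in wild type alone at 1 (without Igf2r), and H3K4me3 with H3K27me3 in Setd5+/- at 5 (without Ascl2, Magel2 and Phlda2). With lists cut to equal covered length, H3K4me3 in wild type alone was at 3 genes (with Ascl2 and Magel2), H3K4me1 at 3 (without Mest and Peg12), H3K36me2 at 2 (with Ppp1r9a), and H3K27me3 in Setd5+/- alone at 1 (Snrpn). Without flanks H3K27ac in Setd5+/- alone was at 1 gene, Nnat, and H19 held no island in any list. H3K4me1 in Setd5+/- alone was at 1 gene, without Peg10, with no flanks, flanks of 10 kb, an overlap of 1000 bp or merged windows, and H3K27ac in wild type alone at 1 locus with merged windows. Without centring, pooled log2 ratios of reads per kb were 0.18 (H3K4me3), 0.41 (H3K36me3), -0.39 (H3K27ac), -0.63 (H3K4me1) and -0.66 (H3K27me3). With an overlap of 1000 bp H3K4me3 in wild type alone stayed at 1 gene, but at Phlda2 and not Ndn. Beyond the construction of each alternative, the cause was not tested. Islands of few reads, such as those of Ndn and Magel2 for H3K4me3 and of Snrpn for H3K27me3, set the limit of what these lists show.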
